A study of Xenopus laevis with 20 samples.

Results

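Gene expression was profiled in whole Xenopus laevis embryos at stage 13, the early neurula, when the eye field forms in the anterior neural plate. The arrays described here are the second of 2 sets in the series: those labelled control 6 to 10 and morpholino injected 1 to 5, which are 10 of the 20 arrays. Per the labels, control 6 to 10 held uninjected siblings, and morpholino 1 to 5 held embryos that had received both MoXrx1, a morpholino antisense to the retinal homeobox gene Xrx1, and synthetic GFP (green fluorescent protein) mRNA, the tracer. The first set holds control 1 to 5, uninjected per the labels, and mRNA 1 to 5, injected with 50 pg of Xrx1 mRNA and 400 pg of GFP mRNA. All injections were made into both dorsal blastomeres at the 4-cell stage. The morpholino dose is given as 1 pM, 10 pg or 0.5 pmol in different places, the GFP mRNA dose as 400 pg or 400 ng, and the Xrx1 mRNA dose as 50 pg or 50 ng. The labels describe each array as a pool of 3 embryos, and the design text describes RNA from single ones. The labelled controls were uninjected, so injection, tracer and agent come together in the injected groups. The parents of the embryos are not described, and the spread behind each p-value is that between arrays, which may be technical.

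The main comparison does not follow the labels. The 10 arrays were grouped by a measured signal, that of the control probe set AFFX-Xl-M62653-1_s_at. An array above log2 8 is called tracer high and any other is called tracer low. Control 6, 7, 8 and 9 and morpholino 5 were tracer high, and control 10 and morpholino 1, 2, 3 and 4 were tracer low. This grouping goes against 8 of the 10 labels, because only control 10 and morpholino 5 had the signal that their labels give them. No treatment is assigned here to any array, and every difference below is tracer high minus tracer low. Because the groups were chosen by the tracer probe set, its values are given as a description without a test.

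Rx1, now named rax, is a homeodomain transcription factor of the eye field, the single anterior domain of the neural plate from which both retinas grow. It acts there with six3, pax6 and other regulators that keep retinal progenitors in the anterior neural plate. A morpholino of this kind blocks the translation or splicing of its target and need not lower the target's transcript. Xenopus laevis is allotetraploid, and the endings .L and .S name the homeologous copies of a gene.

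Values below are on the log2 scale and are listed in a fixed order: control 6, 7, 8, 9 and morpholino 5 for the tracer high arrays, then control 10 and morpholino 1, 2, 3 and 4 for the tracer low arrays. The probe set that defined the groups was at 14.46, 14.35, 13.84, 14.51 and 14.82 in tracer high arrays and at 2.89, 2.95, 2.81, 2.91 and 2.80 in tracer low arrays. The tracer high array nearest the threshold was control 8, and the nearest tracer low array was morpholino 1. A companion control probe set, AFFX-Xl-AF292560-1_s_at, was at 14.84, 14.77, 14.29, 14.71 and 15.07 against 2.77, 3.06, 2.68, 2.89 and 2.80. No array lay between the groups in either probe set. The gene tables name no transcript for these probe sets. They are called tracer probe sets because they were high in the first-set arrays labelled as GFP-injected (13.12 to 14.51 for M62653) and low in control 1 to 5 (3.04 to 3.32). The pd2EGFP control probe set did not follow them and ranged from 2.11 to 2.19 over the 10 arrays.

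**Figure D1:**
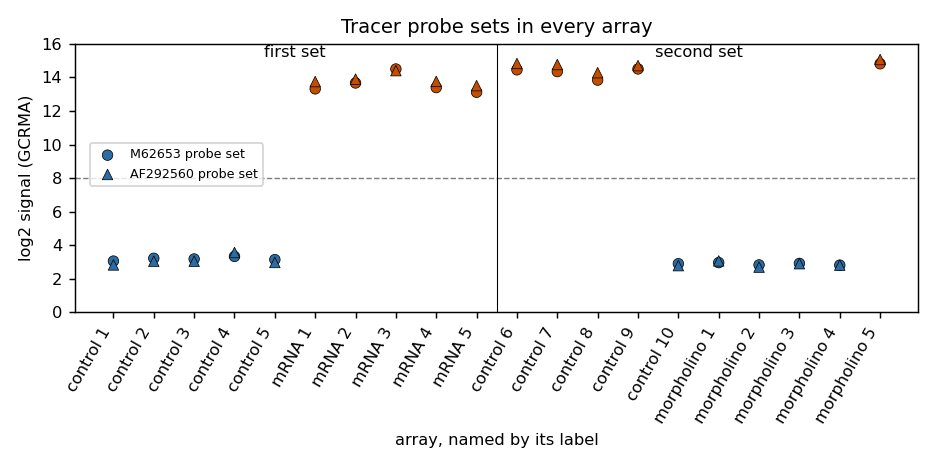
Log2 signal of both tracer probe sets in every array, named by label, with tracer high arrays in orange, tracer low arrays in blue, and the threshold of log2 8 dashed. In the second set control 6 to 9 and morpholino 5 sit between 13.84 and 15.07, and control 10 and morpholino 1 to 4 between 2.68 and 3.06.

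The arrays were checked for other differences that follow the tracer. Markers of epidermis, muscle, notochord, endoderm, cement gland, neural crest and multiciliated cells were above log2 4 in all 10 arrays, as were 3 of 5 neural plate markers, and both blood markers stayed below it. Of the 118 other control probe sets, limma called 0 and 1 had an unadjusted p under 0.05. The largest difference among them was 2.61 in size, and the groups overlapped in each of them. RNA integrity was read as the 3′ minus 5′ log2 difference of the actin and Gapd control probe sets, where a higher value means less 5′ signal. It was 0.82 ± 0.39 (SD, n = 5) in tracer high and 1.47 ± 0.58 (SD, n = 5) in tracer low arrays, a difference of -0.64 (two-sided exact permutation test, p = 0.0635, where 0.00794 is the smallest possible). Of its 4 transcripts, a3Act was itself at 2.79 (3′) in morpholino 5, against 8.0 to 11.04 in the other 9 arrays. Morpholino 2 and morpholino 5 stood apart from the rest, with mean correlations to the other 9 arrays of 0.941 and 0.949, against 0.958 to 0.970 elsewhere.

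Between tracer high and tracer low arrays, 203 of 10435 probe sets passed an adjusted p of 0.05 in limma, 1.95% of those tested, and a probe set past that threshold is said to be called. Of these, 99 were higher (0.949%) and 104 lower (0.997%) in tracer high arrays. Counted as gene copies, each by its probe set of highest mean, 62 of 5516 were called higher and 51 lower. These shares stand behind every list count below, and a list with few calls is not read as changed as a whole. The median difference over all 10435 was 0.0027. The 5 tracer high and 5 tracer low arrays did not overlap in 592 probe sets (5.67%), which include 199 of the 203 called. Called differences ran in size from 0.49 to 4.06. With the arrays in the groups of their labels, 0 of the same 10435 were called (0%), 327 had an unadjusted p under 0.05 and 38 did not overlap.

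The number called depended on single arrays and on which RNA integrity covariate, if any, was fitted. It was 96, 84, 109, 155 and 67 without control 6, 7, 8, 9 and 10, and 57, 121, 170, 81 and 94 without morpholino 1, 2, 3, 4 and 5. All 203 kept their sign in each of these 10 fits, and 53 were called in every one. With the 4-transcript integrity measure as a covariate, 14 were called. With the measure taken from bAct and Gapd alone, an alternative chosen after the data were seen, 305 were called. Without morpholino 2 and 5, also chosen after the data were seen, the number was 105, and without control 10 and morpholino 5, the arrays whose tracer matches their label, it was 37. Of the 203, 9 passed the level filter of log2 4 only through the group in which they were high, so that a difference was built into their selection; foxd1.L, h2ac14.L, lgals4.2.L, pou5f3.3.L and rxrg.L below are among them, and their calls are given as a description. In whole embryos, fewer cells of a type and less RNA per cell cannot be told apart.

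The eye field regulators rax.L, six3.L and pax6.L were lower in tracer high arrays. The rax.L probe set was at 5.01, 5.38, 3.78, 4.76 and 3.73 in tracer high arrays and at 6.61, 6.45, 6.46, 7.1 and 7.21 in tracer low arrays. Every tracer high array lay below every tracer low array, with control 8 and morpholino 5 the lowest and under log2 4. The difference was -2.23 ± 0.33 (SE; limma, adjusted p = 0.00864), a 4.7-fold lower signal. Both rax.S probe sets had group means at or below log2 4 and overlapping groups, with differences of -0.86 ± 0.32 (adjusted p = 0.213) and -0.37 ± 0.25 (adjusted p = 0.545). Grouped by label, rax.L differed by 1.08 between morpholino and control arrays (adjusted p = 0.998).

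The homeobox gene six3.L, a partner of rax in forebrain and eye specification, was at 4.61, 5.59, 4.11, 4.19 and 4.44 in tracer high arrays and at 6.72, 6.75, 6.44, 6.32 and 6.96 in tracer low arrays. Control 7 was the highest of the tracer high arrays and still lay below morpholino 3, the lowest of the others. The difference was -2.05 ± 0.26 (adjusted p = 0.00509). The other copy, six3.S, was not called, at -0.47 ± 0.21 (adjusted p = 0.311). The paired-box gene pax6.L, required for eye and forebrain development, was at 8.36, 8.2, 7.42, 7.99 and 7.93 against 9.37, 9.39, 9.07, 9.16 and 9.71. Its groups did not overlap, and the difference was -1.36 ± 0.19 (adjusted p = 0.00742). The other 4 pax6.L probe sets differed by -1.47 to -2.1. Those at -1.47 (adjusted p = 0.0282), -1.76 (adjusted p = 0.0275) and -2.1 (adjusted p = 0.00848) were called, and the remaining one was not. Of the 12 eye field gene copies on the array 8 passed the level filter, with 3 above 0 and 5 below. Of the 8 copies 3 were called, all lower, and the median difference was -0.66. The same 3 were called among the 16 measured copies of genes linked to Rx1 or to eye specification. All 3 were called whichever single array was left out. Without control 10 and morpholino 5, rax.L (adjusted p = 0.0499) and six3.L (adjusted p = 0.0487) were called and pax6.L (adjusted p = 0.0571) was not. With the 4-transcript integrity covariate none of them was, where rax.L was at -1.87 (adjusted p = 0.0839), six3.L at -1.68 (adjusted p = 0.0578) and pax6.L at -1.18 (adjusted p = 0.0756). With that from bAct and Gapd, chosen after the data were seen, all 3 were called. There rax.L was at -2.12 (adjusted p = 0.0199), six3.L at -1.80 (adjusted p = 0.00996) and pax6.L at -1.24 (adjusted p = 0.0187).

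The cement gland, the mucus-secreting organ at the anterior end of the embryo, had the lowest median difference of the 27 main lists. The gland marker agr2.L, which encodes a secreted disulfide isomerase-like protein, was at 7.11, 7.94, 7.19, 7.09 and 5.82 in tracer high arrays and at 10.25, 10.04, 10.74, 9.84 and 11.01 in tracer low arrays. Control 7, at the top of the tracer high arrays, was still below morpholino 3, the lowest tracer low array. The difference was -3.35 ± 0.36 (adjusted p = 0.00296), or 10.2-fold lower. Its homeolog agr2.S was at 7.82, 8.15, 7.62, 7.65 and 6.52 against 9.81, 9.89, 10.52, 10.01 and 10.64, and differed by -2.62 ± 0.29 (adjusted p = 0.00296). The related ag1.L was at 10.44, 10.40, 9.95, 9.98 and 10.37 against 11.56, 11.45, 11.52, 11.04 and 11.34, a smaller difference of -1.15 ± 0.15 (adjusted p = 0.00517) between groups that did not overlap either. Its copy ag1.S differed by -1.45 ± 0.26 (adjusted p = 0.0235). The homeobox gene pitx1.L, which acts in cement gland and anterior ectoderm, differed by -1.93 ± 0.33 (adjusted p = 0.0182), from 5.63 ± 0.64 to 3.70 ± 0.52 (SD, n = 5), so its tracer high level was under log2 4. Of 10 cement and hatching gland copies on the array 9 passed the filter, 5 were called lower and none higher, with a median of -1.15. The 4 copies not called were all above 0, among them crx.L (0.84) and crx.S (0.74). The calls of agr2.L, agr2.S and ag1.L remained whichever single array was left out, and pitx1.L was not called without control 10 or morpholino 1 (-1.67 to -2.07 over the 10 fits). With the 4-transcript integrity covariate agr2.L (-2.91, adjusted p = 0.035) and agr2.S (-2.36, adjusted p = 0.0381) were still called.

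Other genes of the anterior neural plate were lower in tracer high arrays as single members, not as whole lists. The forkhead gene foxd1.L, expressed in forebrain and temporal retina, was at 2.16, 3.56, 3.12, 1.96 and 2.58 against 4.59, 5.68, 6.68, 3.87 and 4.97. All 5 tracer high arrays were under log2 4, so the size of its difference, -2.48 ± 0.49 (adjusted p = 0.0322), is uncertain. Its call is a description, since it passed the level filter only through the tracer low arrays. The forebrain zinc finger gene fezf2.L differed by -1.39 ± 0.31 (adjusted p = 0.0488), its groups overlapped, and its call was lost without every array but control 7. It was the 1 called gene among the 9 measured copies of the anterior neural plate and forebrain list, whose median was -0.10. Among 17 measured pan-neural copies 1 was called, msi1.L, an RNA-binding protein of neural progenitors (-1.05 ± 0.20, adjusted p = 0.0288). By the probe set of highest mean, 1 of 11 measured midbrain, hindbrain and posterior neural copies was called, in the other direction. This was cdx4.L, a caudal homeobox gene of the posterior embryo, higher by 0.73 ± 0.13 (adjusted p = 0.0253). A second probe set of cdx1.S, of that list, was called higher by 1.27 ± 0.19 (adjusted p = 0.00896), whichever single array was left out. The first cdx1.S probe set gave 0.66 (adjusted p = 0.0745). None of 5 proneural and 18 Notch pathway copies was called. The call of foxd1.L was lost without control 6, 8, 9 or 10 or morpholino 1, 4 or 5 (-2.80 to -2.1). That of msi1.L was lost without control 6, 8, 9 or 10 or morpholino 1, 2 or 4 (-1.22 to -0.97), and that of cdx4.L without control 6 or 8 or morpholino 1, 4 or 5 (0.65 to 0.80). None of foxd1.L, fezf2.L, msi1.L and cdx4.L was called with the 4-transcript integrity covariate. With that from bAct and Gapd, foxd1.L (adjusted p = 0.0476) and cdx4.L (adjusted p = 0.0413) were called, and fezf2.L and msi1.L were not.

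The neural crest regulators sox9.S, snai2.L and foxd3.S were lower, and none of the 18 measured crest copies was called higher (7 were above 0 and 11 below). The SoxE factor sox9.S, which specifies crest and otic placode, was at 7.27, 7.31, 7.36, 7.42 and 7.72 in tracer high arrays and at 8.89, 8.37, 8.77, 8.10 and 8.80 in tracer low arrays. The tracer high values were tightly grouped and did not reach the lowest tracer low array, morpholino 3. The difference was -1.17 ± 0.17 (adjusted p = 0.00864) and was called whichever single array was left out. The zinc finger repressor snai2.L differed by -0.96 ± 0.18 (adjusted p = 0.0279) and the forkhead repressor foxd3.S by -0.79 ± 0.18 (adjusted p = 0.0468). The call of snai2.L was lost without control 6, 7, 8 or 10 or morpholino 2, 4 or 5 (-1.07 to -0.86), and that of foxd3.S whichever array was left out (-0.87 to -0.72). No crest gene was called with the 4-transcript integrity covariate, where sox9.S was at -1.11 (adjusted p = 0.0787). With that from bAct and Gapd, sox9.S (adjusted p = 0.0198), snai2.L (adjusted p = 0.028) and foxd3.S (adjusted p = 0.0188) were called. Against 1.95% of all probe sets, 1 of 11 preplacodal copies (pitx1.L again) and 1 of 16 epidermal copies were called in the surrounding ectoderm. The latter was the keratin gene krt19.S, which differed by -0.82 ± 0.17 (adjusted p = 0.0408), a call lost whichever array was left out (-0.90 to -0.70). None of 14 multiciliated cell genes was called.

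Axial midline genes moved in opposite directions. The ligand gene shh.L, expressed in notochord and floor plate, was at 4.48, 5.81, 6.11, 6.07 and 5.3 in tracer high arrays and at 7.04, 7.74, 7.26, 6.93 and 8.03 in tracer low arrays. The groups did not overlap, and control 6 was the lowest array. The difference was -1.85 ± 0.33 (adjusted p = 0.0221), and shh.L was the only call among 5 measured Hedgehog pathway copies. In contrast, 5 of 19 measured organizer and axial mesoderm copies were called higher in tracer high arrays (15 were above 0 and 4 below). The organizer homeobox gene not.S was higher by 0.93 ± 0.19 (adjusted p = 0.0346) and the T-box gene tbxt.S, or brachyury, by 1.03 ± 0.22 (adjusted p = 0.0414). The secreted Wnt antagonist genes dkk1.S and frzb.L were higher by 1.14 ± 0.23 (adjusted p = 0.0346) and 1.06 ± 0.23 (adjusted p = 0.0464). The fifth was cer1.S, which encodes Cerberus, a secreted antagonist of Nodal, BMP and Wnt ligands made by anterior endomesoderm. It was at 7.91, 8.06, 7.24, 7.48 and 9.74 against 6.41, 6.19, 4.84, 6.25 and 6.22, a difference of 2.1 ± 0.45 (adjusted p = 0.0428), and morpholino 2 was the lowest array.

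These axial calls lay near the threshold and most needed nearly all arrays. From 0 to 3 members of the organizer list were called with 1 array left out, the 0 being without morpholino 1, and 1 with the 4-transcript integrity covariate. With the covariate from bAct and Gapd 6 were called, and not.S was not among them (adjusted p = 0.064). The call of shh.L was lost without morpholino 1, 4 or 5 (-1.99 to -1.58). That of cer1.S was lost without control 6, 7, 9 or 10 or morpholino 1, 2, 3 or 4 (1.69 to 2.31), and that of dkk1.S without control 7, 8 or 10 or morpholino 1, 2, 4 or 5 (1.00 to 1.29). The call of not.S was lost without control 6, 7, 8 or 10 or morpholino 1, 3, 4 or 5 (0.80 to 1.03), and that of frzb.L, whose groups overlapped, without control 7, 8, 9 or 10 or morpholino 1, 2, 3 or 5 (0.91 to 1.2). The call of tbxt.S was made only without morpholino 4 (0.90 to 1.14).

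**Figure D2:**
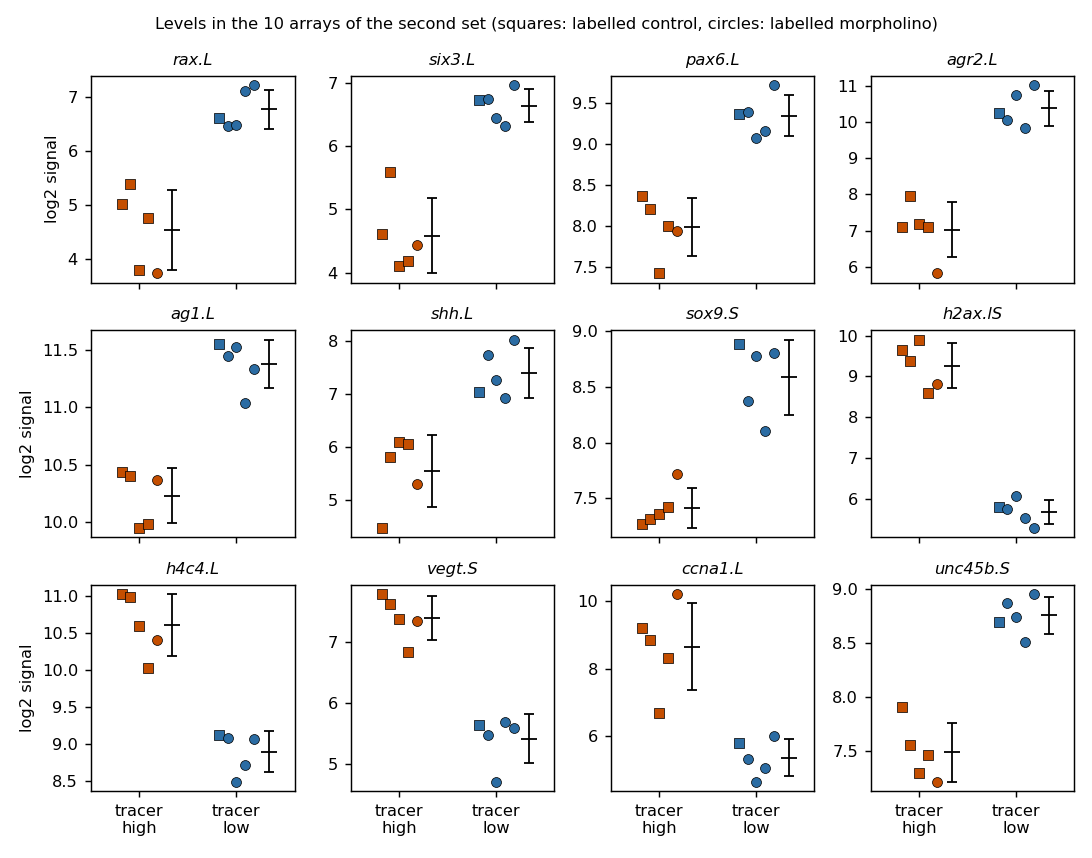
Log2 signal of 12 named gene copies in the 10 arrays of the second set, each point 1 array, with the mean ± SD (n = 5) drawn to the right of each group. All 12 were taken from genes called between these same groups. The groups do not overlap in 199 of the 203 called probe sets. That tracer high and tracer low arrays do not overlap in any of the 12 therefore came largely with the choice. The same holds for control 10 (blue square) and morpholino 5 (orange circle), which fall with their tracer group, and neither bears on the grouping.

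Several genes of the vegetal mass and of the egg were higher in tracer high arrays. The T-box gene vegt.S, a maternal determinant of endoderm and mesoderm, was at 7.79, 7.62, 7.38, 6.84 and 7.35 in tracer high arrays and at 5.63, 5.47, 4.70, 5.68 and 5.58 in tracer low arrays. Morpholino 2 was the lowest of the tracer low arrays and the groups did not overlap. The difference was 1.98 ± 0.22 (adjusted p = 0.00343), or 3.95-fold. Its homeolog vegt.L was not called, at 0.85 ± 0.21 (adjusted p = 0.0645). The endodermal zinc finger gene gata4.L was higher by 1.00 ± 0.22 (adjusted p = 0.0479), a call that remained without control 6 only (0.87 to 1.14). With cer1.S these made 3 called higher among 22 measured endoderm copies, none lower, with a median of 0.42.

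The POU factor gene pou5f3.3.L, a relative of mammalian Oct4 that is maternally supplied, was at 6.18, 6.99, 6.34, 4.90 and 7.78 against 4.08, 3.27, 2.94, 2.99 and 4.55. The groups did not overlap and the tracer low mean was under log2 4, so the size of the difference, 2.87 ± 0.49 (adjusted p = 0.0199), is uncertain. This copy passed the level filter only through the tracer high arrays, so its call is a description. It was the 1 call among 14 measured copies of the pluripotency and early embryo list, whose median was 0.43, and it was lost without control 7 or morpholino 1 (2.53 to 3.25). The largest difference of any named gene belonged to satpb.L. It was at 9.36, 9.63, 9.24, 7.71 and 10.23 in tracer high arrays and at 4.34, 4.56, 4.66, 7.43 and 4.86 in tracer low arrays, where morpholino 3 stood well above the other 4 without reaching the tracer high arrays. The difference was 4.06 ± 0.60 (adjusted p = 0.00928) and was called whichever single array was left out, but not without control 10 and morpholino 5 (adjusted p = 0.07).

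A list of egg coat and oocyte transcripts was added after values had been seen, as were the histone and sarcomere lists below. Of its 30 measured copies 4 were called higher and none was called lower (25 were above 0 and 5 below), and the median was 0.47. The 4 were vegt.S, zp2.L and both copies of ccna1. The egg envelope glycoprotein gene zp2.L was higher by 0.86 ± 0.12 (adjusted p = 0.00848). Cyclin A1, the cyclin A of egg and early embryo, had the largest change in the cell cycle list. The copy ccna1.L was at 9.21, 8.84, 6.70, 8.31 and 10.21 against 5.8, 5.32, 4.64, 5.05 and 5.99, with control 8 the lowest tracer high array but still above all tracer low ones. The difference was 3.29 ± 0.54 (adjusted p = 0.015), and ccna1.S was higher by 1.70 ± 0.34 (adjusted p = 0.0346). Both copies of the mitotic cyclin gene ccnb2 were also higher, ccnb2.L by 0.49 ± 0.11 (adjusted p = 0.0439) and ccnb2.S by 0.71 ± 0.14 (adjusted p = 0.0333). By the probe set of highest mean, these 4 were the only calls among 52 measured cell cycle copies, whose median was 0.09. A second probe set of rrm1.L, of that list, was called higher by 0.95 ± 0.18 (adjusted p = 0.0282). The first gave 0.25 (adjusted p = 0.32). The calls of vegt.S, zp2.L and ccna1.L remained whichever single array was left out, but without control 10 and morpholino 5 zp2.L (adjusted p = 0.0682) and ccna1.L (adjusted p = 0.0533) were not called. That of ccna1.S was lost without control 6, 7, 9 or 10 or morpholino 1, 2, 3 or 5 (1.46 to 1.93), that of ccnb2.S without control 6, 7, 8, 9 or 10 or morpholino 1 or 4 (0.65 to 0.77), and that of ccnb2.L whichever array was left out (0.46 to 0.53). Of all these genes vegt.S was the one still called with the 4-transcript integrity covariate (2.13, adjusted p = 0.035). With that from bAct and Gapd, vegt.S, zp2.L and both ccna1 copies were called, and neither ccnb2 copy was.

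Part of the measured histone genes was higher in tracer high arrays. Of 17 measured copies in the histone list 6 were called higher and none was called lower (13 were above 0 and 4 below). The probe set assigned to h2ax.lS, a copy of the H2A variant that is phosphorylated at DNA breaks, was at 9.65, 9.37, 9.90, 8.59 and 8.82 in tracer high arrays and at 5.79, 5.75, 6.06, 5.51 and 5.29 in tracer low arrays. The lowest tracer high array, control 9, lay far above the highest tracer low array, morpholino 2. The difference was 3.59 ± 0.25 (adjusted p = 0.000187), or 12-fold, and a second probe set of this copy gave 3.96. Another h2ax copy, h2ax.S, was at 11.50, 12.32, 12.05, 11.23 and 11.49 against 9.41, 9.66, 10.77, 9.74 and 9.44 and was higher by 1.92 ± 0.29 (adjusted p = 0.00928), with morpholino 2 the highest tracer low array.

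The same held for core histone genes. The H2B gene h2bc11.S was at 10.82, 11.29, 10.56, 9.87 and 11.37 against 8.79, 8.06, 7.69, 7.80 and 8.79 and was higher by 2.55 ± 0.32 (adjusted p = 0.00494). The H4 gene h4c4.L was at 11.03, 10.99, 10.60, 10.02 and 10.41 against 9.12, 9.09, 8.49, 8.72 and 9.06 and was higher by 1.71 ± 0.21 (adjusted p = 0.00494). Neither pair of groups overlapped. The H2A genes h2ac14.L and h2ac7.L were higher by 2.46 ± 0.39 (adjusted p = 0.0137) and 1.65 ± 0.18 (adjusted p = 0.00296). The calls of h2ax.lS, h2ax.S, h2bc11.S, h4c4.L and h2ac7.L remained whichever single array was left out. That of h2ac14.L is a description, since it passed the level filter only through the tracer high arrays. With the 4-transcript integrity covariate h2ax.lS, h2bc11.S, h4c4.L and h2ac7.L were called, and h2ax.S was not (adjusted p = 0.0845). There h2ac14.L was also past the threshold (2.99, adjusted p = 0.0351), again as a description. Without control 10 and morpholino 5 the calls of h2ax.S (adjusted p = 0.063) and h2ac14.L (adjusted p = 0.0505) were lost. The tracer low mean of h2ac14.L was under log2 4, at 3.14 ± 0.81 (SD, n = 5), so the size of its difference is uncertain. The other 11 measured copies were not called and the list's median was 0.20. Histone genes form near-identical multigene families, so a probe set may read several of them and the gene named for it is uncertain.

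Part of the measured muscle genes was lower in tracer high arrays. Of 53 sarcomere and muscle fibre copies on the array 22 passed the level filter, 7 were called, all lower, and the median was -1.41. The actin-binding sarcomere protein gene nexn.S was at 4.90, 3.35, 4.06, 4.91 and 3.2 in tracer high arrays and at 6.35, 6.55, 6.85, 6.07 and 6.79 in tracer low arrays. The groups did not overlap and differed by -2.43 ± 0.35 (adjusted p = 0.00819). The myosin chaperone gene unc45b.S was at 7.91, 7.56, 7.3, 7.47 and 7.22 against 8.70, 8.87, 8.74, 8.52 and 8.96, again with no overlap, and differed by -1.27 ± 0.15 (adjusted p = 0.00459). Both calls remained whichever single array was left out. The other 5 were the troponin I gene tnni1.2.L (-2.04 ± 0.45), the calcium channel subunit gene cacng1.L (-1.66 ± 0.35), the filamin C gene flnc.L (-1.43 ± 0.30), the muscle methyltransferase gene smyd1.L (-1.37 ± 0.30) and myos.L (-1.35 ± 0.27), with adjusted p from 0.0346 to 0.0468. The tracer high mean of flnc.L was under log2 4, at 3.92, so the size of its difference is uncertain. From 2 to 7 members of the list were called with 1 array left out, the 2 being without control 6, 7 or 10 or morpholino 1, 2 or 4. None was called with the 4-transcript integrity covariate and 12 were with that from bAct and Gapd. The a3Act control transcript that was low in morpholino 5 carries the name of an alpha actin, and its part in these values was not tested. In the earlier paraxial mesoderm and muscle list 1 of 19 measured copies was called, the MADS-box factor gene mef2d.L (-0.70 ± 0.13, adjusted p = 0.0279), a call lost without control 6, 7, 8 or 10 or morpholino 1, 3, 4 or 5 (-0.80 to -0.64). In the same list myl1.L was not called by its probe set of highest mean (-1.46, adjusted p = 0.0509). A second myl1.L probe set was called (-1.71 ± 0.33, adjusted p = 0.0288).

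**Figure D3:**
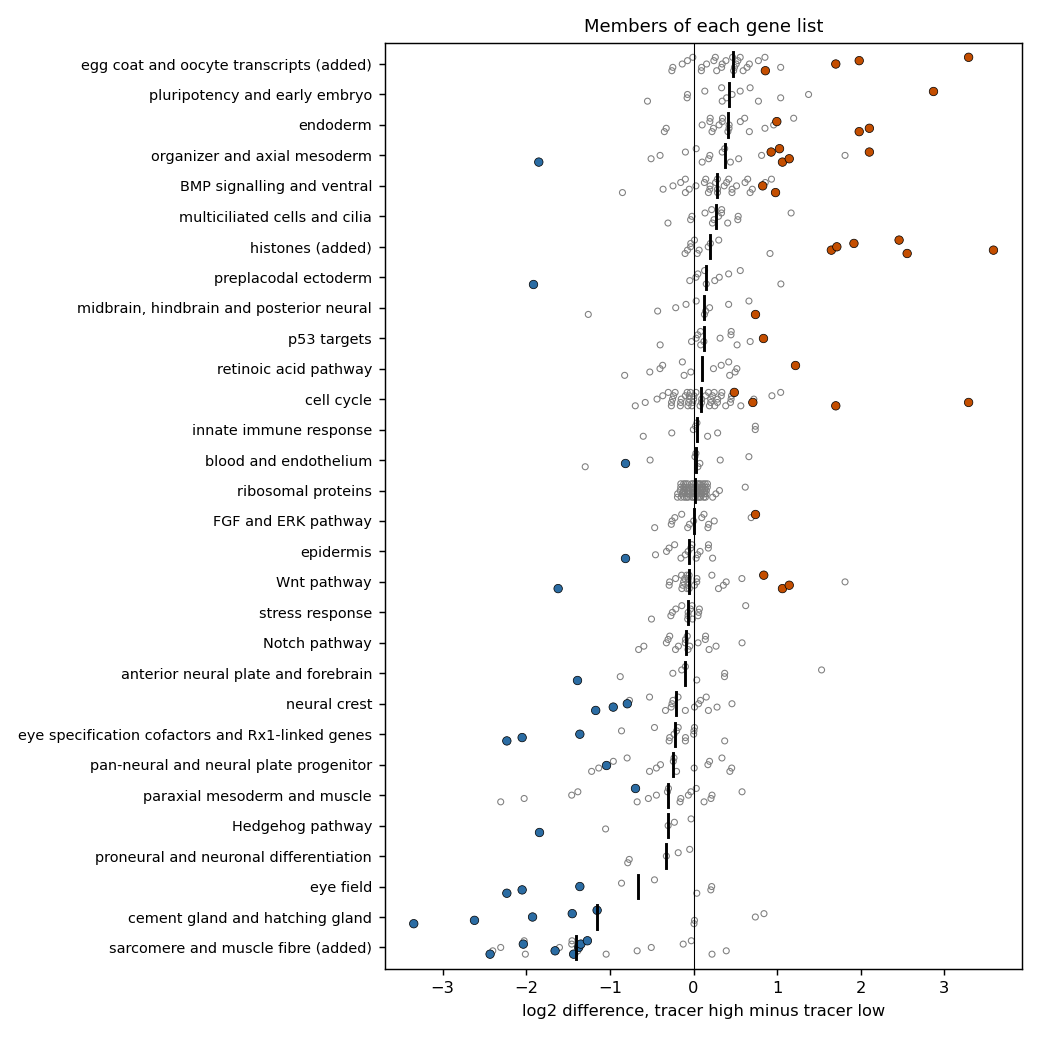
Log2 difference, tracer high minus tracer low, of every measured member of each gene list, ordered by the list's median (black bar), with members called higher in orange, called lower in blue and not called as open circles. The sarcomere (-1.41) and cement gland (-1.15) lists have the lowest medians and the egg coat and oocyte list (0.47) the highest, while the 69 ribosomal protein genes cluster near 0.

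Secreted regulators of the Wnt and BMP pathways moved in both directions. The Wnt-binding protein gene sfrp2.S was at 6.14, 6.71, 5.98, 6.74 and 6.07 in tracer high arrays and at 7.41, 7.65, 8.58, 7.91 and 8.2 in tracer low arrays. The groups did not overlap and sfrp2.S differed by -1.62 ± 0.24 (adjusted p = 0.00928), a call made whichever single array was left out. The ligand gene wnt5b.S was higher by 0.84 ± 0.16 (adjusted p = 0.03), which with dkk1.S and frzb.L gave 3 called higher and 1 called lower of 28 measured Wnt pathway copies, around a median of -0.06. The gene kcp.L, which encodes a chordin-like BMP modulator, was at 4.40, 5.54, 6.19, 5.95 and 4.65 against 7.1, 7.28, 8.11, 7.18 and 7.57 and differed by -2.1 ± 0.35 (adjusted p = 0.0159), again with no overlap and with a call that remained whichever single array was left out. Of 31 measured BMP and ventral copies 2 were called higher and none was called lower: szl.L, a secreted feedback inhibitor of the pathway (0.98 ± 0.18, adjusted p = 0.0264), and the ventral homeobox gene ventx3.2.S (0.83 ± 0.17, adjusted p = 0.0346). The list had 24 members above 0 and 7 below it. With the 4-transcript integrity covariate none of the Wnt and BMP genes of this paragraph other than frzb.L was called, with adjusted p of 0.086 for sfrp2.S, 0.123 for kcp.L, 0.101 for szl.L, 0.142 for ventx3.2.S and 0.203 for wnt5b.S. Without control 10 and morpholino 5 kcp.L was not called either (adjusted p = 0.0761). With the integrity covariate from bAct and Gapd all Wnt and BMP genes of this paragraph were called. The adjusted p ran from 0.00772 for frzb.L to 0.049 for dkk1.S. The call of szl.L was lost without control 8 or morpholino 1 or 5 (0.86 to 1.05), that of ventx3.2.S without every array but control 10 (0.74 to 0.94), and that of wnt5b.S without control 6, 7, 8 or 10 or morpholino 1, 3, 4 or 5 (0.77 to 0.95).

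The other lists held at most 1 call each, where 1.95% of all probe sets were called. In the retinoic acid list 1 of 14 was called, the retinoid X receptor gene rxrg.L (1.21 ± 0.21, adjusted p = 0.02), not without control 10 or morpholino 1. The gene cdx4.L was the 1 call among 15 FGF and ERK pathway copies. In the p53 target list 1 of 13 was called, the polyamine enzyme gene sat1.S (0.83 ± 0.17, adjusted p = 0.0396), and only without morpholino 3 did it stay so. In the blood and endothelium list 1 of 9 was called, the Ets factor gene spib.S (-0.82 ± 0.14, adjusted p = 0.0202), not without control 10 or morpholino 1 or 4. By the probe set of highest mean, none of 9 innate immune, 15 stress response and 69 ribosomal protein copies was called, and the ribosomal median was 0.02. A second probe set of ifi30.L, of the innate immune list, was called higher by 0.95 ± 0.21 (adjusted p = 0.0464). That call was lost whichever array was left out, and the first probe set gave 0.02 (adjusted p = 0.989). The rule for the largest differences also took gpi.S and lgals4.2.L, which are in none of the lists. The gene gpi.S encodes the glycolytic enzyme glucose-phosphate isomerase and was higher by 1.93 ± 0.35 (adjusted p = 0.0253), a call lost without control 6 or morpholino 1, 4 or 5 (1.66 to 2.16). The galectin gene lgals4.2.L differed by -2.1 ± 0.47 (adjusted p = 0.0468), with a tracer high mean of 2.61 under log2 4 and a call that remained without morpholino 3 only (-2.40 to -1.75). The calls of rxrg.L and lgals4.2.L are a description, since each passed the level filter only through its higher group.

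The homeologous copies allow a second look at some of these genes, although whether each probe set tells the copies apart was not tested. Both copies passed the filter in 745 genes, and in 31 of these at least 1 copy was called. Of all 5516 gene copies, 62 were called higher and 51 lower, and of all probe sets 1.95% were called. A pair counts if either copy is called, so its share is not comparable with these and is not read as raised. In 4 genes, agr2, ag1, ccna1 and ccnb2, both copies were called, each pair in the same direction. In the other 27 the copy not called had the same sign in 23, against 67.2% of all 745 pairs. The 4 with opposite signs, listed after their values were seen, were ppp1cc (1.5 for .L and -0.07 for .S), ppa2 (1.07 and -0.13), ckap4 (-0.05 for .L and 0.78 for .S) and rcbtb1 (-0.35 and 0.71).

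The second set was last compared with the first, in which tracer and labels did not conflict and the tracer high arrays were those labelled Xrx1 mRNA injected. The sets share no array. Their differences were tested against each other in 1 fit of all 20 arrays, and 49 of 10435 probe sets were called (0.47%), 22 with a higher and 27 with a lower second-set difference. The number ran from 13 without morpholino 1 to 85 without control 3, and was 2 without control 10 and morpholino 5. Of the 203 probe sets called within the second set 40 were among them. This overlap is partly built in, because the contrast contains the second-set difference. Of the 203, 48.3% had the same sign in the first set, against 45.7% of all probe sets. The 4-transcript integrity measure ran in opposite directions in the sets. Its median was 2.50 in mRNA 1 to 5 and 1.29 in control 1 to 5, against 0.76 in tracer high and 1.31 in tracer low arrays. The contrast of sets was not fitted with an integrity covariate, so the part of integrity in its calls was not tested.

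The contrast of sets was not called for rax.L or agr2.L. In the first set rax.L was at 4.41 ± 0.88 (SD, n = 5) in mRNA arrays and at 7.1 ± 0.72 (SD, n = 5) in control 1 to 5, a difference of -2.69 ± 0.41 (adjusted p = 0.0125). The second-set difference minus this was 0.46 ± 0.58 (adjusted p = 0.761). Per the labels the mRNA arrays held injected Xrx1 mRNA, and whether the rax probe sets read it was not tested. For agr2.L the first-set difference was -2.96 ± 0.68 (adjusted p = 0.254) and the contrast of sets -0.38 ± 0.96 (adjusted p = 0.895). For six3.L the contrast was called, with -0.33 ± 0.22 in the first set and a contrast of -1.72 ± 0.31 (adjusted p = 0.021). How this six3.L call fares with arrays left out is not given here.

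Some histone genes were among the most positive contrasts, and 4 of 17 measured histone copies were called between sets. The contrasts of h2bc11.S (2.86 ± 1.18, adjusted p = 0.267) and h4c4.L (1.92 ± 0.45, adjusted p = 0.061), both called within the second set, were not. The probe set of h2ax.lS differed by -0.48 ± 0.50 in the first set, and the contrast was 4.07 ± 0.71 (adjusted p = 0.021). h2ax.S (2.02 ± 0.35, adjusted p = 0.021), h2ac14.L (2.95 ± 0.56, adjusted p = 0.0238) and pou5f3.3.L (2.60 ± 0.55, adjusted p = 0.0395) were also called. The forebrain homeobox gene otx2.S had a contrast of 2.16 ± 0.45 (adjusted p = 0.0387) with a first-set difference of -1.79 ± 0.32, against 0.37 ± 0.22 in the second set. Among called contrasts, the rule for named genes took the following as most negative: rax.S (-2.30 ± 0.51, adjusted p = 0.0498), cacng1.L (-2.24 ± 0.49, adjusted p = 0.0498), myos.L (-1.91 ± 0.34, adjusted p = 0.021), unc45b.S (-1.83 ± 0.36, adjusted p = 0.0278) and the fibrillin gene fbn3.L (-1.77 ± 0.32, adjusted p = 0.021). In rax.S the first-set difference was 1.44 ± 0.36 with the probe set of higher mean, and -1.37 with the other, whose contrast was 1.01 (adjusted p = 0.393). Whether either probe set reads the Xrx1 mRNA injected in the first set was not tested. The second-set means of rax.S were at or below log2 4, so its contrast is uncertain in size, as are those of h2ac14.L and pou5f3.3.L. The calls of h2ac14.L and pou5f3.3.L are a description, since both passed the level filter only through tracer high arrays. With 1 of the 20 arrays left out, h2ax.lS, h2ax.S and myos.L were called in 20 of 20 fits, fbn3.L in 19, h2ac14.L in 16, unc45b.S in 11, otx2.S in 8, pou5f3.3.L and cacng1.L in 4 and rax.S in 3.

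**Figure D4:**
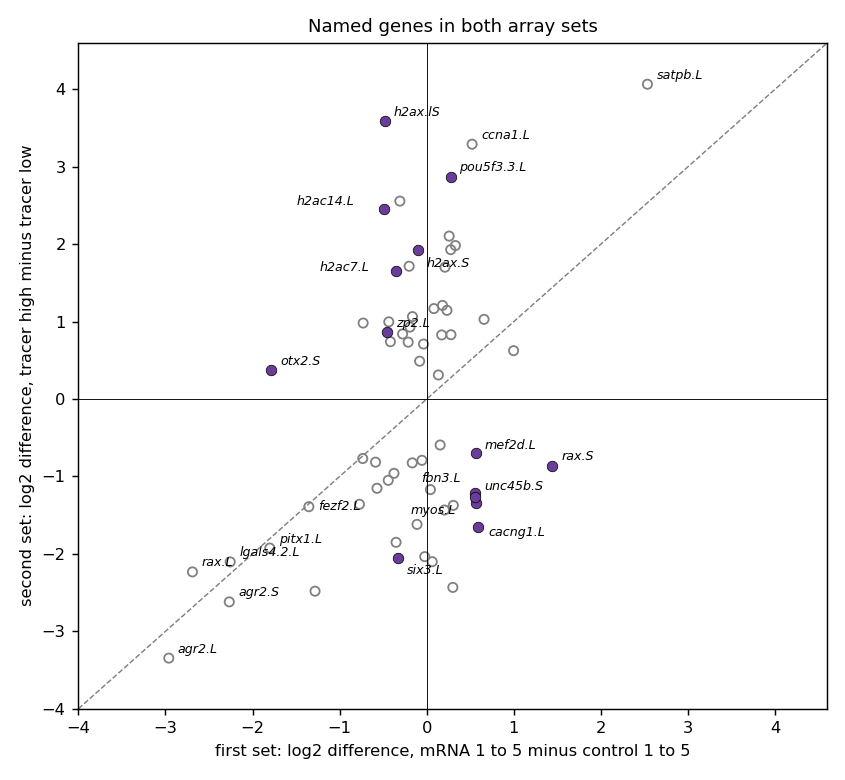
Second-set log2 difference (tracer high minus tracer low) against the first-set difference (mRNA 1 to 5 minus control 1 to 5) of the named gene copies, with those called between sets in purple and equality dashed. The agr2 copies and rax.L lie low on both axes near the dashed line, and h2ax.lS lies at 3.59 in the second set and -0.48 in the first.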

How the data were processed

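The authors deposited 1 log2 value per probe set and array, and the submitters' processing notes name GCRMA as the tool, with no version. Which arrays it normalized together is not given in the sources used here. Arrays have no read depth, and their number limits the precision. Of 15491 gene probe sets, 10435 were above log2 4 in at least 5 of the 20 arrays and were kept; 120 control probe sets were not tested as genes. Symbols came from the platform annotation (9304 probe sets with 1 symbol, 195 with several, 5992 with none; 2 symbols updated), and a gene copy was represented by its probe set with the highest mean. Tracer groups, label groups and the contrast of sets were fitted with limma 3.58.1 in R 4.3.3 (lmFit, eBayes) and adjusted by Benjamini-Hochberg over all kept probe sets at 0.05; all adjusted p-values are limma's. Levels carry ± SD over arrays and differences ± SE of the fit.

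The array groups, members and all gene lists were chosen with earlier results of these data known, and 3 of 30 lists (histones; sarcomere and muscle fibre; egg coat and oocyte transcripts) after values were seen, so none is tested or offered as independent support. Named genes were all rax probe sets; the 10 higher and 10 lower called genes with the largest difference, groups not overlapping and the higher mean above log2 4; up to 4 called members per list (8 in the added lists) or the 1 with the smallest p; and 5 higher and 5 lower genes of the contrast of sets. The scripts were tested on simulated data. Alternatives covered the filter, centring, quantile normalization, prior variance, array weights, a replicate block, RNA integrity and arrays left out. RNA integrity was an alternative for the tracer groups only.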

Additional observations from a re-analysis of the deposited data

Results flagged for a closer look

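Within a group of 5 arrays, 1 array lay far from the other 4 (by Dixon's criterion, 0.71 of the range) in 7 of 130 groups of values examined, and chance alone flags about 1 in 20. Among tracer low arrays, morpholino 3 was high in satpb.L (7.43, others 4.34 to 4.86) and in a rax.S probe set (4.79, others 3.31 to 3.72) and low in msi1.L (8.21, others 8.95 to 9.14). Morpholino 2 was low in cer1.S (4.84, others 6.19 to 6.41) and vegt.S (4.70, others 5.47 to 5.68) and high in h2ax.S (10.77, others 9.41 to 9.74). Among tracer high arrays, morpholino 5 was high in tbxt.S (10.24, others 9.5 to 9.67).

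In 14 named probe sets the second-set difference departed from the first-set difference in limma's test of the contrast, with adjusted p from 0.0210 to 0.0498. Among them are the 5 higher and 5 lower genes named because this contrast called them, so the count came largely with the choice. Of all probe sets 49 of 10435 were called (0.47%), and 2 without control 10 and morpholino 5. The second-set difference was more positive in the histone genes h2ax.lS (4.07), h2ac14.L (2.95), h2ax.S (2.02) and h2ac7.L (2.01), in pou5f3.3.L (2.60), in otx2.S (2.16) and in zp2.L (1.32). It was more negative in a rax.S probe set (-2.30), whose second-set means of 3.14 and 4.00 are at or below log2 4 and whose sister probe set gave 1.01 (adjusted p = 0.393). Whether these rax.S probe sets read the Xrx1 mRNA injected in the first set was not tested. The second-set difference was less positive or more negative in other genes as well. These were the muscle genes cacng1.L (-2.24), myos.L (-1.91), unc45b.S (-1.83) and mef2d.L (-1.26), and also fbn3.L (-1.77) and six3.L (-1.72). The values of h2ac14.L and pou5f3.3.L are a description, since both passed the level filter only through tracer high arrays.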

How the results depend on the processing

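The 203 calls between tracer groups became 307 with all 20 arrays in 4 groups, 780 with array weights, 76 with a replicate block (control number minus 5), 14 with the 4-transcript RNA integrity covariate, 305 with that from bAct and Gapd, 105 without morpholino 2 and 5, and 37 without control 10 and morpholino 5, the arrays whose tracer matches their label. The bAct and Gapd covariate and the omission of morpholino 2 and 5 were chosen after the data were seen. The count ran from 57 to 170 with 1 array left out. Filters, centring, quantile normalization and a trended, robust prior gave 163 to 206. The control and morpholino numbers were not taken as pairs: 3 of 5 correlations of deviations were over 0.1 (-0.23 to 0.40) and 0 of 5 arrays matched their own number best. The contrast of sets had 49 calls, 13 to 85 with 1 array left out, 49 with the block (28 of them shared) and 2 without control 10 and morpholino 5. The comparison by label gave 0 in every alternative run. By single transcript, the RNA integrity difference was -1.38 from a3Act (exact permutation test, p = 0.0159) and -0.29 from a1Act (p = 0.524). It was -0.59 from bAct (p = 0.302) and -0.32 from Gapd (p = 0.0952). In morpholino 5 a3Act was at 2.79 (3′) and 4.82 (5′), so the a3Act value of that array is limited by signal over background. No named gene changed direction; of 55 called, 9 were called with the 4-transcript covariate, 47 with that from bAct and Gapd, 17 without control 10 and morpholino 5 and 29 with the block. The causes were not tested. The smallest called differences, and probe sets with a mean under log2 4 (22 of the 203), are limited by signal over background.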

Other observations

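After removal of the tracer group means, some arrays deviated together across probe sets. The correlations were 0.725 for control 8 with morpholino 2, 0.637 for control 9 with morpholino 3 and 0.611 for morpholino 4 with morpholino 5. The main fit took the arrays as independent, and how these shared deviations bear on its p-values was not tested. The first principal component of the 10 arrays held 35.1% of the variance, with morpholino 2 (-57.7) and morpholino 5 (44.4) at its ends.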
